A study of Mus musculus with 30 samples.

Results

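Fibroblast growth factor (FGF) signalling was followed through 10 genes of mouse stem cells, stem-cell-derived endoderm and embryonic foregut: the ligands Fgf4, Fgf5, Fgf8 and Fgf15, the receptors Fgfr1, Fgfr2, Fgfr3 and Fgfr4, and the feedback genes Dusp6 and Spry4. The 10 were chosen by name, with earlier results of these data known, from 19938 genes with a probe set of their own on the array. Each had a single probe set. The 30 arrays make up 10 groups, each with 3 biological replicates, and values are log2 expression after RMA, the robust multi-array averaging of probe signals. Endoderm at day 5 of differentiation was compared with undifferentiated cells at day 0 in embryonic stem (ES) cells and in ST5 and ST8, each a single clone of induced pluripotent stem (iPS) cells, all on a C57BL/6x129SvJae background. The sort took Kit-positive, Sox2-dim cells at day 5 and Sox2-bright cells at day 0, so time and gate cannot be told apart. These 6 groups fill 18 arrays labelled without amplification. Another 12 arrays carry amplified RNA: foregut endoderm of E8.25 Swiss Webster embryos (ENDM1-positive, Epcam-positive, low side scatter), ENDM1-negative Epcam-positive cells of such embryos, and ES cells at day 5 and day 0. How many embryos made up a sample is not given in the sources used here. In these bulk samples, fewer cells of a type and less RNA per cell cannot be told apart. Levels were compared within a labelling only, and the number of arrays limits their precision.

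FGF ligands bind receptor tyrosine kinases together with heparan sulfate or a Klotho co-receptor, and the signal runs through RAS and the kinases MEK and ERK. ERK signalling switches on its own brakes, among them the ERK phosphatase Dusp6 and the Sprouty protein Spry4. In mouse pluripotent cells Fgf4 is the ligand that pushes cells out of the naive state, Fgf5 marks the primed epiblast, and Fgf8 is needed for cells to leave the primitive streak.

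The promoters of Fgf4 and Fgf5 are shown because these ligands moved in opposite directions between day 0 and day 5 in all 3 lines. Each window runs from 250 bases before the start of the gene to 50 bases from it on, 5′ to 3′, from RefSeq on GRCm38.p6. RefSeq windows were matched for 6 of the 10 genes, Fgf4, Fgf5, Fgfr2, Fgfr3, Fgfr4 and Dusp6. Fgf4 lies at chr7:144861136-144861435 on the plus strand and Fgf5 at chr5:98253934-98254233 on the plus strand. Capitals mark matches on either strand to any of 4 promoter motifs. The TATA box, bound by the general transcription factor TFIID, was searched as the run TATAAA and also, as an alternative spelling, TATATA. The GC box, a site of Sp family factors, was searched as GGGCGG. The CCAAT box, a site of the factor NF-Y, was searched by the letters of its name. The ETS core, shared by the Etv factors downstream of FGF, was searched as CCGGAA.
Fgf4: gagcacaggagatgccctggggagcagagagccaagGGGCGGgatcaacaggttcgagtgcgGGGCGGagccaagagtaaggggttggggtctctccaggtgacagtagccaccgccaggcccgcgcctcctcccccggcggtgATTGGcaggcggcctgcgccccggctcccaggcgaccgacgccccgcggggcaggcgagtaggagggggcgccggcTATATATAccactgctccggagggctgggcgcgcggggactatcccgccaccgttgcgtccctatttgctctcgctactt
Fgf5: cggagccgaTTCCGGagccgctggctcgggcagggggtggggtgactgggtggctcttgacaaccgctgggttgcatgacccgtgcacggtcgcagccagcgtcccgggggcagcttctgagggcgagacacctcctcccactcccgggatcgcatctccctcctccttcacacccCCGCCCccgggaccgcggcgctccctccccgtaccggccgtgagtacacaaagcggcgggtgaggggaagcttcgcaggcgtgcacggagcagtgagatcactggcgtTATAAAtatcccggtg
The Fgf4 window held 2 overlapping TATA box matches, 2 GC boxes and 1 CCAAT box. The Fgf5 window held 1 TATA box match, which lies past the annotated start, 1 GC box and 1 ETS core. Among all 32851 promoter windows of this length, 17.1% held a TATA box match, 35.7% a GC box, 37.4% a CCAAT box and 14.9% an ETS core. A match is a description of the letters and does not show that a factor binds there.

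Of the 18 unamplified arrays, 2 day 5 arrays stood apart from the others of their group, and several FGF genes moved with them. ES day 5 replicate 1 differed from the other arrays of its group by 0.316 (root mean square over all genes), against 0.197 and 0.2 for those arrays, and ST8 day 5 replicate 2 by 0.39, against 0.236 and 0.22. Nanog, a core factor of pluripotency, stood at 5.96, 6.58 and 5.78 in ST5 at day 5, at 9.93, 6.85 and 9.84 in ST8 and at 8.18, 9.24 and 9.24 in ES cells (replicates 1, 2 and 3, an order kept throughout). Sox17, an endoderm transcription factor, stood at 8.99, 8.82 and 8.69 in ST5, at 7.40, 9.30 and 7.23 in ST8 and at 9.35, 7.15 and 7.28 in ES cells. Both arrays thus had less Nanog and more Sox17 than the other arrays of their group, and for these genes lay nearer to ST5 than those arrays did. Pou5f1, another core factor of pluripotency, ran over 8.29 to 8.4 in ST5 at day 5, 7.25 to 10.48 in ST8 and 8.41 to 9.64 in ES cells. By Pou5f1 the lowest ST8 array thus lay below ST5. Of 12 measured definitive endoderm markers, 12 were higher at day 5 than at day 0 in ES cells, which fits the label of those cells. Of 8 fibroblast markers, 8 were lower at day 5 in ES cells (array means 4.98 to 5.43 at day 5, 7.66 to 8.05 at day 0) and 8 in each iPS clone. The part of these fibroblast genes in the day 5 differences below was not tested.

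Fgf4 fell to a low level in every line by day 5. Its values were 5.94, 5.82 and 6.21 in ES cells at day 5, against 8.48, 8.40 and 8.33 at day 0. In ST5 they were 5.32, 5.23 and 5.60 at day 5, against 7.73, 7.88 and 7.98 at day 0. In ST8 they were 5.79, 5.75 and 5.63 at day 5, against 8.02, 7.83 and 7.97 at day 0. No day 5 array came within 1 log2 unit of a day 0 array. In ES cells the difference was -2.41 ± 0.11 (SE, adjusted p = 7.4e-11), a 5.32-fold lower level at day 5. It was -2.48 ± 0.11 in ST5 and -2.21 ± 0.11 in ST8. The day 5 means, 5.38 ± 0.19 (SD, n = 3) in ST5, 5.72 ± 0.08 in ST8 and 5.99 ± 0.20 in ES cells, lay close to the median level of all genes (5.96), which limits how much further a fall could show.

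Fgf5, the marker of primed epiblast, rose in all 3 lines. It measured 9.77, 9.21 and 9.16 in ES cells at day 5, against 7.33, 7.96 and 7.92 at day 0. In ST5 it measured 9.54, 9.52 and 9.39 at day 5, against 9.06, 8.60 and 8.27 at day 0. In ST8 it measured 9.36, 9.51 and 9.32 at day 5, against 8.44, 8.42 and 8.47 at day 0. Day 5 and day 0 arrays did not overlap in any line, and the 3 day 5 means (9.48 in ST5, 9.40 in ST8, 9.38 in ES cells) were within the spread of the arrays. Fgf5 rose by 1.65 ± 0.19 in ES cells (adjusted p = 3.71e-06), by 0.84 ± 0.19 in ST5 (0.00149) and by 0.96 ± 0.19 in ST8 (0.000638).

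Fgf8 rose in ES cells, while its differences in the iPS clones did not pass the test. The ES arrays read 7.93, 7.81 and 7.81 at day 5, against 6.84, 7.37 and 6.80 at day 0, a rise of 0.85 ± 0.14 (adjusted p = 0.000158). ST5 arrays read 7.49, 7.51 and 7.45 at day 5, against 7.99, 7.70 and 7.32 at day 0, and ST8 arrays 7.56, 7.54 and 7.65 at day 5, against 7.44, 7.41 and 7.42 at day 0. The ST5 difference was -0.19 ± 0.14 (adjusted p = 0.312), with overlapping arrays, and the ST8 difference 0.16 ± 0.14 (0.437). With ST5 day 0 replicate 3 left out, the ST5 difference passed as a fall (-0.36, adjusted p = 0.0363). Fgf8 was already higher in ST5 than in ES cells at day 0, as given below.

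Fgf15, a ligand of the gut and the embryonic brain whose gene neighbours Fgf4 on chromosome 7, fell in ST5. It stood at 5.76, 5.62 and 5.79 in ST5 at day 5, against 6.84, 6.95 and 6.83 at day 0, a difference of -1.15 ± 0.25 (adjusted p = 0.000957). ES arrays stood at 6.27, 6.46 and 6.48 at day 5, against 6.72, 6.76 and 6.75 at day 0, which do not overlap but did not pass (-0.34 ± 0.25, adjusted p = 0.322). ST8 arrays stood at 7.36, 6.15 and 7.69 at day 5, against 6.82, 6.60 and 6.94 at day 0 (0.28 ± 0.25, adjusted p = 0.422). ST8 replicate 2 lay below the day 0 arrays and the other 2 above them. Without that array Fgf15 rose by 0.74 in ST8 (adjusted p = 3.92e-05), and the ES difference passed the test (adjusted p = 0.00847), since the groups share an estimate of the spread. The ES difference also passed with only the ES groups compared in the fit (adjusted p = 0.0117).

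**Figure D1:**
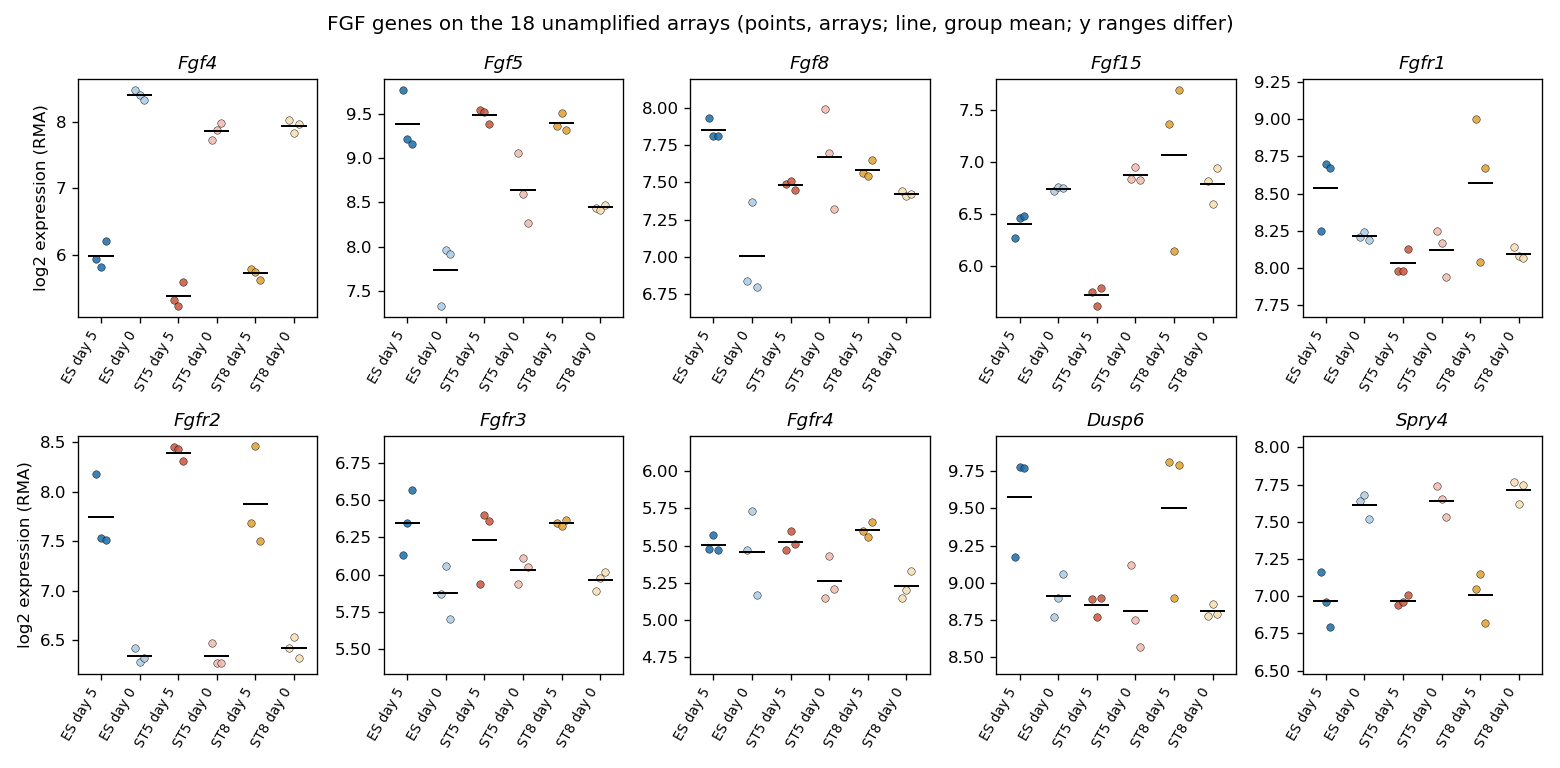
Log2 expression of the 10 FGF genes on the 18 unamplified arrays, day 5 beside day 0 in each of the 3 lines (ES, ST5, ST8), with points for arrays, lines for group means and a y range of its own per gene. Fgf4 and Spry4 are lower and the receptor gene Fgfr2 higher on every day 5 array than on any day 0 array of the same line.

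Fgfr2 was the receptor that changed most. The epithelial splice form of its product takes ligands such as Fgf10, and a gene-level probe set does not separate the forms. Fgfr2 read 8.18, 7.53 and 7.51 in ES cells at day 5, against 6.42, 6.28 and 6.32 at day 0, a rise of 1.40 ± 0.20 (adjusted p = 2.65e-05). It read 8.45, 8.43 and 8.31 in ST5 at day 5, against 6.47, 6.27 and 6.27 at day 0, a rise of 2.06 ± 0.20 (2.71e-07). It read 7.68, 8.46 and 7.50 in ST8 at day 5, against 6.42, 6.53 and 6.32 at day 0, a rise of 1.46 ± 0.20 (1.64e-05). Day 0 levels of the 3 lines overlapped. At day 5 the 3 ST5 arrays, ST8 replicate 2 and ES replicate 1 were the highest.

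Fgfr1, the main receptor for Fgf4 in mouse ES cells, differed between day 5 arrays more than between day 0 arrays. It stood at 8.252, 8.703 and 8.672 in ES cells at day 5, against 8.21, 8.24 and 8.19 at day 0 (0.33 ± 0.17, adjusted p = 0.154). In ST5 it stood at 7.98, 7.98 and 8.13 at day 5, against 8.252, 8.17 and 7.94 at day 0 (-0.09 ± 0.17, adjusted p = 0.701). In ST8 it stood at 8.996, 8.044 and 8.675 at day 5, against 8.14, 8.08 and 8.07 at day 0, a rise of 0.48 ± 0.17 (adjusted p = 0.0375) with overlapping arrays. The ST8 rise was lost under 9 of the settings tried, among them a required log2 difference of at least 1, leaving out ST8 day 5 replicate 1 (0.26, adjusted p = 0.22) or replicate 3 (adjusted p = 0.109) or any ST8 day 0 array (0.0661, 0.0843 and 0.0895 for replicates 1, 2 and 3). The ES difference passed when ES day 5 replicate 1 was left out (0.48, adjusted p = 0.0489) and when ST8 day 5 replicate 2 was (0.0264).

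Fgfr3 and Fgfr4 moved little and lay near the median level of all genes. Fgfr3 averaged 6.35 ± 0.22 in ES cells at day 5 and 5.87 ± 0.18 at day 0, a rise of 0.48 ± 0.12 (adjusted p = 0.00511), and 6.35 ± 0.02 in ST8 at day 5 and 5.97 ± 0.07 at day 0, a rise of 0.38 ± 0.12 (0.0193). The ST8 call did not hold when ST8 day 0 replicate 1 was left out (0.0693). In ST5 Fgfr3 averaged 6.24 ± 0.25 at day 5 and 6.03 ± 0.09 at day 0 (0.21 ± 0.12, adjusted p = 0.191), and it passed without ST5 day 5 replicate 1 (adjusted p = 0.0212). Fgfr4, a receptor of liver and gut endoderm, rose in ST8 by 0.38 ± 0.11 (adjusted p = 0.00981), at 5.60, 5.56 and 5.66 on day 5, against 5.15, 5.20 and 5.33 on day 0. It differed by 0.27 ± 0.11 in ST5 (adjusted p = 0.0538) and by 0.05 ± 0.11 in ES cells (0.779). The ST5 difference passed without ES day 0 replicate 2 (adjusted p = 0.0204) or 3 (0.0167) or without ST5 day 0 replicate 2 (0.0217).

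The feedback genes went opposite ways in ES cells and ST8, while in ST5 Dusp6 did not pass. Spry4, an inhibitor of receptor tyrosine kinase signalling, fell in all 3 lines by similar amounts. Spry4 read 7.16, 6.96 and 6.79 in ES cells at day 5, against 7.64, 7.68 and 7.52 at day 0 (-0.64 ± 0.10, adjusted p = 5.46e-05). It read 6.94, 6.96 and 7.01 in ST5 at day 5, against 7.74, 7.65 and 7.53 at day 0 (-0.67 ± 0.10, 2.15e-05), and 7.05, 7.15 and 6.82 in ST8 at day 5, against 7.77, 7.62 and 7.75 at day 0 (-0.71 ± 0.10, 1.85e-05). All day 5 arrays lay below all day 0 arrays, and arrays of the 3 lines overlapped on either day.

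Dusp6, which removes phosphate from ERK, rose in ES cells and ST8. It measured 9.17, 9.78 and 9.77 in ES cells at day 5, against 8.77, 8.90 and 9.06 at day 0 (0.66 ± 0.21, adjusted p = 0.019). It measured 9.81, 8.90 and 9.79 in ST8 at day 5, against 8.78, 8.86 and 8.79 at day 0 (0.69 ± 0.21, adjusted p = 0.0137), and 8.89, 8.77 and 8.90 in ST5 at day 5, against 9.12, 8.75 and 8.57 at day 0 (0.04 ± 0.21, adjusted p = 0.899). The low day 5 arrays were ES replicate 1 and ST8 replicate 2. The ES call did not hold when ES day 5 replicate 2 (adjusted p = 0.0796), ES day 5 replicate 3 (0.0792) or ES day 0 replicate 1 (0.0723) was left out. The ST8 call did not hold when ST8 day 5 replicate 1 (0.0731) or 3 (0.0702) was left out or when the ST8 groups were fitted alone (0.0624).

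Counted over the 10 genes, 7 passed in ES cells (5 higher, 2 lower at day 5), against 38.6% of all genes called in that comparison. In ST5 5 passed (2 higher, 3 lower), against 47.9% of all genes, and in ST8 8 passed (6 higher, 2 lower), against 40.5%. Arrays of the days did not overlap for 9 of the 10 genes of ES cells (48.2% of all genes), for 6 of ST5 (57.0%) and for 8 of ST8 (49.4%). Calls at day 5 are therefore common among all genes, and in ST5 the share among FGF genes was near the background. The 10 were chosen with earlier results of these data known. The counts therefore describe these genes, and no excess over all genes can be read from them. Without ES day 5 replicate 1 and ST8 day 5 replicate 2 5 of the 10 passed for ST5, against 52.8% of all genes in that fit, 9 for ST8, against 42.4%, and 9 for ES cells, against 42.5%. With both left out, Fgfr2 rose by 1.18 in ES cells and 1.17 in ST8, less than with them, and Fgfr1 by 0.48 and 0.74 and Dusp6 by 0.86 and 0.99, more than with them. Fgf4, Fgf5, Fgfr2 and Spry4 passed in every line with the same sign. The share of all genes that did so was not counted.

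**Figure D2:**
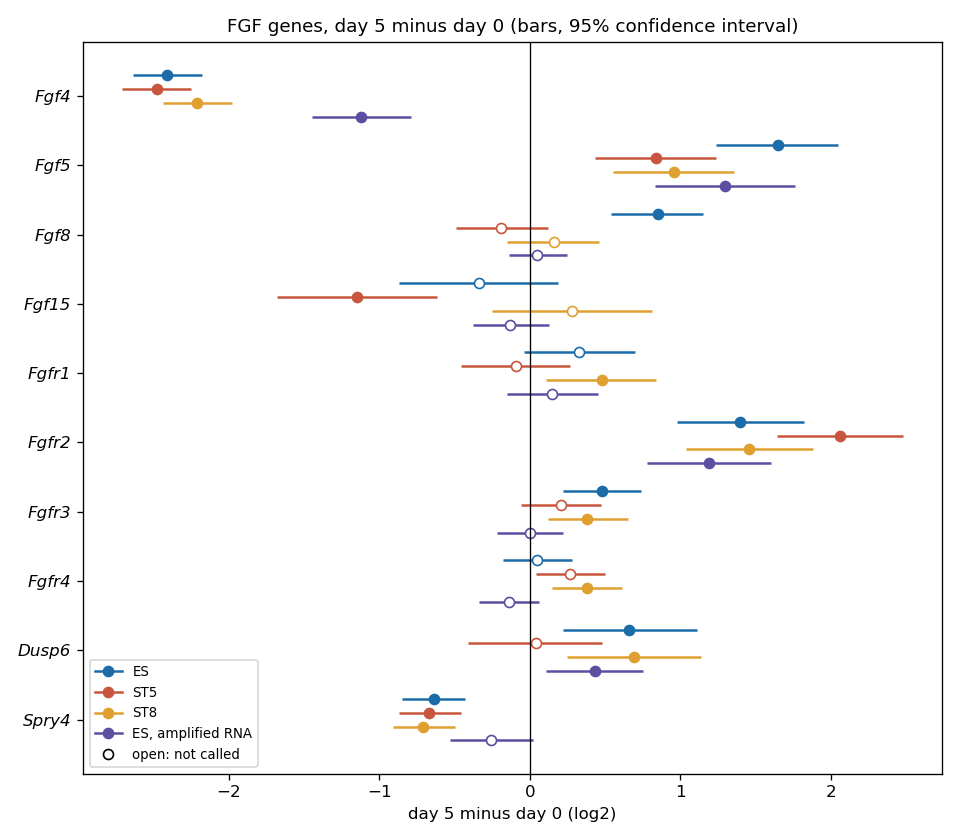
Day 5 minus day 0 (log2) for each FGF gene in ES cells, ST5 and ST8 on unamplified arrays and in ES cells on amplified arrays, with 95% confidence intervals, and open points where the adjusted p was not under 0.05. Fgf4 lies below 0 and Fgf5 and Fgfr2 above 0 in all 4 comparisons, while Fgf8 and Fgf15 differ in sign between lines.

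On the 9 unamplified day 5 arrays, Fgfr1, Dusp6 and Fgf15 were high where Nanog was high, and Fgfr2 and Fgf5 were low there. The 4 arrays with Nanog at or above 9.24 are ES replicates 2 and 3 and ST8 replicates 1 and 3. On them Dusp6 lay at 9.77 to 9.81 and Fgfr2 at 7.50 to 7.68. The other 5 arrays, with Nanog at or below 8.18, had Dusp6 at 8.77 to 9.17 and Fgfr2 at 8.18 to 8.46. Fgf5 lay at 9.16 to 9.36 on the 4 arrays and at 9.39 to 9.77 on the other 5. Spry4 overlapped between them, at 6.79 to 7.05 and 6.94 to 7.16, and Fgf4 was lowest in ST5 (5.23 to 5.60), with 5.63 to 5.79 in ST8 and 5.82 to 6.21 in ES cells. The part of remaining Nanog-expressing cells in these levels was not tested.

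**Figure D3:**
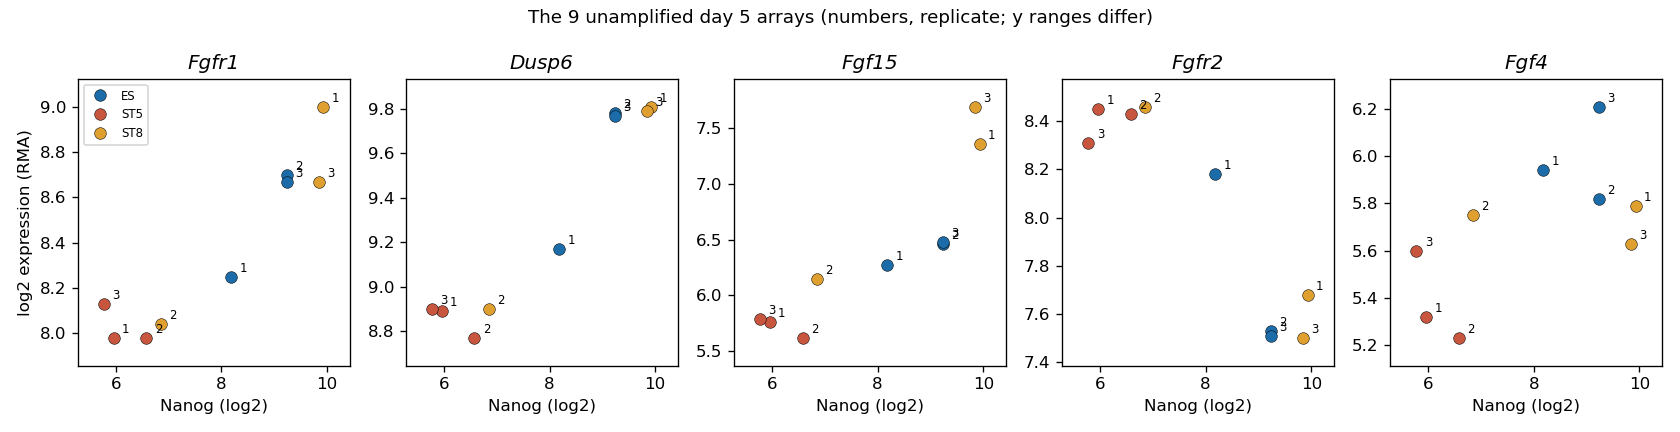
Log2 expression of Fgfr1, Dusp6, Fgf15, Fgfr2 and Fgf4 (y axes) against that of Nanog (x axis) on the 9 unamplified day 5 arrays, coloured by line and numbered by replicate. For Fgfr1, Dusp6 and Fgfr2, ES replicate 1 and ST8 replicate 2 lie nearer to the ST5 arrays than the other arrays of their group do.

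Before differentiation, the iPS clones had less Fgf4 and ST5 had more Fgf5 and Fgf8 than ES cells. Both clones were set against the same 3 ES arrays. In ST5, Fgf4 was lower by -0.54 ± 0.11 (adjusted p = 0.0103), Fgf5 higher by 0.91 ± 0.19 (0.0144) and Fgf8 higher by 0.67 ± 0.14 (0.0163, with overlapping arrays). In ST8, Fgf4 was lower by -0.47 ± 0.11 (adjusted p = 0.0246), and Fgf5 and Fgf8 differed by 0.71 ± 0.19 (0.0547) and 0.42 ± 0.14 (0.13). The 3 calls in ST5 stand against 3.22% of all genes called, and the 1 call in ST8 against 3.55%. No receptor and no feedback gene among the 10 passed in either clone.

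These day 0 calls lay near the threshold, and each was lost with certain single arrays left out, which also leaves fewer samples. Over all settings the Fgf4 difference stayed at -0.6 to -0.47 in ST5 and at -0.51 to -0.41 in ST8. All 3 ST5 calls missed the threshold when ES day 0 replicate 1 was left out (adjusted p = 0.0606, 0.085 and 0.0895 for Fgf4, Fgf5 and Fgf8) or without ST5 day 0 replicate 1 (0.0553, 0.0698 and 0.0751). The Fgf8 call was also lost without ES day 0 replicate 3 (0.0933) or ST5 day 0 replicate 2 (0.063), or when only the groups compared were fitted (0.077). The ST8 call of Fgf4 was lost without any ES or ST8 day 0 array (0.0508 to 0.106). The Fgf5 difference in ST8 passed without ST5 day 0 replicate 1 (0.0275) or 3 (0.0361), without ES day 5 replicate 1 (0.026) or without ST8 day 5 replicate 2 (0.0405), and the Fgf8 difference without ES day 0 replicate 2 (0.0223). Genes of the primitive streak, the source of mesoderm and endoderm in the embryo, moved beside these ligands: 5 of 8 measured were higher in ST5 and 3 of 8 in ST8. Their array means ran over 6.05 to 6.74 in ST5 and 6.13 to 6.26 in ST8, against 5.40 to 5.53 in ES cells.

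At day 5, ST5 differed from ES cells in 4 FGF genes, against 23.3% of all genes called. Fgf4 was lower in ST5 by -0.61 ± 0.11 (adjusted p = 0.00177), Fgfr1 by -0.51 ± 0.17 (0.0421) and Dusp6 by -0.71 ± 0.21 (0.0233), while Fgfr2 was higher by 0.66 ± 0.20 (0.0264). None of these 4 had overlapping arrays, as was so for 39.6% of all genes. Fgf15 differed by -0.68 ± 0.25 (adjusted p = 0.0591) and Fgf8 by -0.37 ± 0.14 (0.0754), with arrays that do not overlap either. Fgfr1, Fgfr2 and Dusp6 all missed the threshold when ES day 5 replicate 2 was left out (adjusted p = 0.156, 0.115 and 0.102) or 3 (0.157, 0.126 and 0.107), or without ST5 day 5 replicate 1 (0.114, 0.0794 and 0.0581) or 2 (0.105, 0.0694 and 0.0695). Without ST5 day 5 replicate 3, Fgfr1 and Dusp6 lost theirs (0.0648 and 0.0507). Fgfr1 also missed it, at 0.0511 to 0.0533, with any ES or ST8 day 0 array or ST5 day 0 replicate 2 left out. Fgf15 passed once ST8 day 5 replicate 2 (0.000138) or 3 (0.0244) was left out, and Fgf8 once ES day 0 replicate 2 (0.0346) or ST5 day 0 replicate 1 (0.0449) or 3 (0.0388) was. Fgf15 and Fgf8 also passed with only the groups compared in the fit (0.00866 and 0.0195) and with all 30 arrays in a fit (0.0244 and 0.0388). So did Fgf15 without genes under the median level (0.0453) and Fgf8 with a further quantile normalization (0.0343). Pluripotency genes moved beside them, with 6 of 12 lower and 1 higher in ST5. Their array means ran over 5.77 to 5.85 in ST5 and 6.36 to 6.83 in ES cells. Of the visceral endoderm markers 4 of 7 were higher in ST5 (array means 6.36 to 6.55 in ST5, 5.27 to 5.68 in ES cells), and of the neural ectoderm markers 5 of 10 were lower (4.82 to 4.95 in ST5, 5.07 to 5.44 in ES cells). Of 12 definitive endoderm markers 3 were higher and 1 lower, of 10 mesoderm and heart markers 1 was higher and 3 lower, and of 8 fibroblast markers 3 were lower. The part of these lists in the FGF differences was not tested.

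ST8 at day 5 differed from ES cells in 0 of the 10 genes by limma, with 0.958% of all genes called, and 2 genes, Fgf4 and Fgf15, had an unadjusted p under 0.05. The largest difference was that of Fgf15, at 0.67 ± 0.25 (adjusted p = 0.21). Without ST8 day 5 replicate 2, Fgf15 was higher in ST8 by 1.13 (adjusted p = 2.32e-05), and without that array and ES day 5 replicate 1 by 1.06 (4.12e-05). For the other 9 genes the 95% intervals of the difference lay between -0.57 and 0.56.

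The response over the 5 days differed between ST5 and ES cells for Fgf8. The day 5 minus day 0 difference of ST5 less that of ES cells was -1.04 ± 0.20 for Fgf8 (adjusted p = 0.0101), with 5.58% of all genes called. For Fgf5 it was -0.81 ± 0.27 (adjusted p = 0.0866), which passed without ST5 day 0 replicate 3 (-0.99, adjusted p = 0.0462). For Fgf15 it was -0.81 ± 0.35 (adjusted p = 0.174), which passed with only the groups compared in the fit (adjusted p = 0.00145). In ST8 less ES cells, 0 of the 10 genes passed by limma, with 0.838% of all genes called and 3 genes (Fgf5, Fgf8 and Fgfr4) at an unadjusted p under 0.05, Fgf8 being at -0.69 ± 0.20 (adjusted p = 0.147). The Fgf8 difference in ST8 passed without ES day 0 replicate 2 (-0.87, adjusted p = 0.0341). The Fgf15 difference passed once ST8 day 5 replicate 2 was left out (1.09, adjusted p = 0.00073). Without both arrays that stood apart, 5 genes passed in ST5 less ES cells: Fgf8, Fgf15 at -0.88, Fgfr1 at -0.57, Fgfr2 at 0.88 and Dusp6 at -0.82. That fit called 26.5% of all genes. Without ST8 day 5 replicate 2 alone 3 passed (Fgf8, Fgf15 and Fgfr2), against 14.4% of all genes, and without ES day 5 replicate 1 alone 2 passed (Fgf8 and Fgfr2), against 16.4%.

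Other genes of the pathway moved both ways over the 5 days. Of 18 other FGF ligands, 2 rose and 4 fell in ES cells, 3 rose and 6 fell in ST5, and 2 rose and 4 fell in ST8, with medians of 0.01, -0.14 and -0.06 against 0.02, -0.04 and -0.01 over all genes. Fgf7, a ligand made by mesenchyme, changed by -2.18 ± 0.15 in ST5, -2.43 ± 0.15 in ST8 and -2.65 ± 0.15 in ES cells, beside the fibroblast markers given above. Fgf17, a close relative of Fgf8, changed by -2.49 ± 0.15, -2.28 ± 0.15 and -2.06 ± 0.15 in the same 3 lines, the opposite sign to Fgf8 in ES cells. Fgf16 rose by 1.75 ± 0.23 in ST5, 0.86 ± 0.23 in ST8 and 0.87 ± 0.23 in ES cells. Fgf10, a ligand of the Fgfr2 epithelial form, rose by 1.19 ± 0.20 in ST5 and 0.84 ± 0.20 in ES cells.

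Of 24 measured co-receptors and heparan sulfate genes, 9 rose and 4 fell in ES cells, 9 and 4 in ST5 and 9 and 3 in ST8 (medians 0.16, 0.14 and 0.12). The largest rises were those of Gpc3, a heparan sulfate proteoglycan, at 2.23 ± 0.14 in ST5, 1.88 ± 0.14 in ST8 and 2.38 ± 0.14 in ES cells, and of Flrt3, a membrane protein that binds FGF receptors, at 2.65 ± 0.35, 1.73 ± 0.35 and 2.32 ± 0.35. Hs6st2, which sulfates heparan chains, changed by -1.74 ± 0.24, -1.01 ± 0.24 and -0.75 ± 0.24 in ST5, ST8 and ES cells. Of 13 measured adaptors and kinases of the cascade, 4 rose and 3 fell in ES cells, 5 and 4 in ST5 and 4 and 2 in ST8. Gab1, a docking protein below the receptors, changed by -0.99 ± 0.07, -1.28 ± 0.07 and -1.58 ± 0.07 in ST5, ST8 and ES cells, and Sos2, a RAS activator, by 1.08 ± 0.12, 1.0 ± 0.12 and 0.74 ± 0.12.

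Of 27 other feedback inhibitors and ERK targets, 9 rose and 8 fell in ES cells, 10 rose and 12 fell in ST5, and 10 rose and 9 fell in ST8. In ES cells, Dusp4, a nuclear ERK phosphatase, rose by 1.94 ± 0.17 and Phlda1 by 1.42 ± 0.42, while Fos and Dusp1, immediate early genes, changed by -2.44 ± 0.20 and -1.83 ± 0.13. Etv4, Etv5 and Spry2, textbook targets of FGF signalling, were picked here after their values were seen. They fell like Spry4, while Dusp4 rose in ES cells as Dusp6 did. Etv5 changed by -1.65 ± 0.08 in ST5, -1.55 ± 0.08 in ST8 and -1.27 ± 0.08 in ES cells, Spry2 by -1.21 ± 0.07, -1.05 ± 0.07 and -0.64 ± 0.07, and Etv4 by -1.37 ± 0.15, -0.94 ± 0.15 and -0.95 ± 0.15 in the same 3 lines. At day 0 Etv5 was higher in the clones than in ES cells, by 0.63 ± 0.08 in ST5 (adjusted p = 0.000125) and 0.79 ± 0.08 in ST8 (1.06e-05), and Spry2 by 0.28 ± 0.07 (0.0472) and 0.40 ± 0.07 (0.0058). Of the 27 genes these 2 alone passed at day 0, in either clone. At day 5, 7 of the 27 were higher and 5 lower in ST5 than in ES cells (median -0.06, against -0.04 over all genes). In that comparison 23.3% of all genes were called. Phlda1 was higher by 1.43 ± 0.42 and Errfi1, an inhibitor of the EGF receptor, by 0.86 ± 0.16, while Etv1 was lower by -2.07 ± 0.52 and Dusp4 by -1.0 ± 0.17.

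The amplified arrays gave the same sign as the unamplified ones for the largest changes of ES cells, and smaller sizes for several. Fgf4 read 4.83, 5.31 and 5.25 at day 5, against 6.03, 6.22 and 6.50 at day 0, a fall of -1.12 ± 0.15 (adjusted p = 0.000109). Fgf5 read 8.974, 8.216 and 8.249 at day 5, against 6.84, 7.51 and 7.20 at day 0 (1.30 ± 0.21, adjusted p = 0.000535). Fgfr2 read 7.13, 6.35 and 6.65 at day 5, against 5.76, 5.58 and 5.22 at day 0 (1.19 ± 0.19, adjusted p = 0.000391). Dusp6 rose by 0.43 ± 0.15 (adjusted p = 0.0459), with overlapping arrays, but missed the threshold with any 1 of several arrays left out: ES day 5 replicate 2 or 3 (adjusted p = 0.149 and 0.139), ES day 0 replicate 1 or 2 (0.16 and 0.15), ENDM1-negative replicate 1 (0.0565) or foregut replicate 1, 2 or 3 (0.0608, 0.0549 and 0.0528). It missed it as well with other scalings or other groups in the fit (0.0558 to 0.1). Fgf8, at 0.05 ± 0.09, and Spry4, at -0.26 ± 0.13 (adjusted p = 0.17), did not pass. In all, 4 of the 10 genes were called, against 26.9% of all genes. Amplified ES day 5 replicate 1 stood apart from the other arrays of its group (root mean square difference 0.288, against 0.214 and 0.208). Without it the differences were -0.97 for Fgf4, 1.05 for Fgf5, 0.98 for Fgfr2 and 0.56 for Dusp6, and all 4 passed. Over all genes, the SD of the day 5 minus day 0 differences was 0.50 on amplified and 0.58 on unamplified arrays. The labels do not say whether the ES cells of both labellings came from the same cultures.

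In E8.25 embryos, Fgfr4 separated foregut from ENDM1-negative cells. It stood at 6.06, 5.96 and 5.99 in foregut, against 5.51, 5.51 and 5.44 in ENDM1-negative cells, a difference of 0.52 ± 0.09 (adjusted p = 0.0043). It was the 1 FGF gene of the 10 to pass, with 8.14% of all genes called. Fgf15 stood at 5.94, 5.86 and 6.24 in foregut, against 6.29, 6.36 and 6.58 in ENDM1-negative cells. The groups did not overlap, which held for 28.2% of all genes, but the difference of -0.39 ± 0.12 missed the threshold (adjusted p = 0.0626), and passed without foregut replicate 3 (-0.51, adjusted p = 0.0269) or without ES day 5 amplified replicate 1 (0.0494). Fgf8 read 6.61, 6.53 and 6.77 in foregut, against 6.49, 6.34 and 6.50 in ENDM1-negative cells (0.19 ± 0.09, adjusted p = 0.242). The other 7 genes overlapped between the 2 populations. Klb, the Klotho co-receptor that works with Fgfr4 and was picked after its value was seen, was higher in foregut by 0.85 ± 0.15 (adjusted p = 0.00469), at 5.28 ± 0.39 in foregut and 4.43 ± 0.13 in ENDM1-negative cells. Both Klb means lay below the median level of all genes on amplified arrays (5.89), and Fgfr4 in foregut lay near that median.

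Between foregut and ENDM1-negative cells, 8.14% of all genes were called. Of the 24 co-receptors and heparan sulfate genes, 6 were higher and 0 lower in foregut by limma (median 0.19, against 0.01 over all genes), led by Flrt2 at 1.34 ± 0.27 and Gpc3 at 1.06 ± 0.10. Of the other feedback genes and ERK targets, 2 of 27 were higher, Il17rd by 0.64 ± 0.15 and Etv5 by 0.50 ± 0.09, and 1 was lower, Myc at -0.81 ± 0.22. Of the 12 definitive endoderm markers, 11 were higher in foregut, as its label says. Markers of visceral endoderm, the extraembryonic layer that covers the embryo, moved with these genes. Of 7 measured, 6 were higher in foregut, and their array means ran over 7.61 to 8.96 in foregut and 5.65 to 6.34 in ENDM1-negative cells. Afp stood at 7.86 ± 0.97 in foregut and 5.00 ± 0.03 in ENDM1-negative cells, and Ttr at 11.52 ± 0.37 and 7.83 ± 0.56. Liver and gut endoderm also express several of these markers. Of 7 surface ectoderm markers 5 were lower in foregut (array means 5.45 to 5.48 in foregut, 6.46 to 6.58 in ENDM1-negative cells). The part of either marker list in the Fgfr4 difference was not tested.

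**Figure D4:**
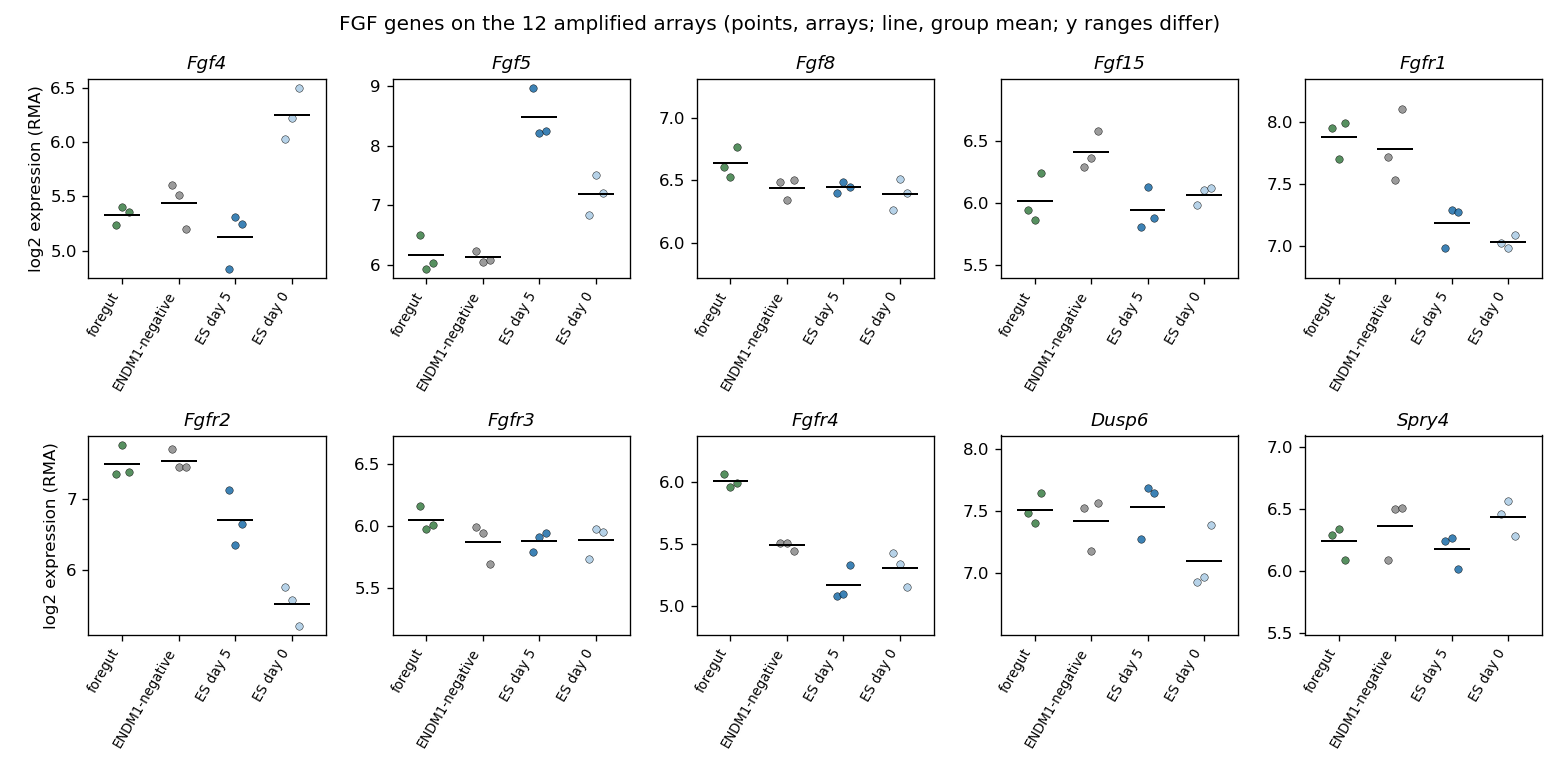
Log2 expression of the 10 FGF genes on the 12 amplified arrays, for E8.25 foregut, E8.25 ENDM1-negative cells and ES cells at day 5 and day 0, with points for arrays, lines for group means and a y range of its own per gene. Fgf5 is high in ES cells at day 5, at 8.22 to 8.97, and Fgfr4 is highest in foregut, at 5.96 to 6.06.

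Foregut and ES-derived endoderm differed most in Fgf5. It stood at 6.51, 5.93 and 6.04 in foregut, against 8.974, 8.216 and 8.249 in ES cells at day 5, a difference of -2.32 ± 0.21 (adjusted p = 1.19e-05). Foregut also had a lower level than ES cells at day 0 (7.18 ± 0.34). Of the receptors, Fgfr1, Fgfr2 and Fgfr4 lay the other way. Fgfr1 was higher in foregut by 0.69 ± 0.14 (adjusted p = 0.003), at 7.95, 7.70 and 7.99 in foregut, against 6.99, 7.29 and 7.28 in ES cells at day 5. Fgfr2 was higher by 0.79 ± 0.19 (adjusted p = 0.00927), at 7.35, 7.77 and 7.38 in foregut, against 7.13, 6.35 and 6.65 in ES cells. Fgfr4 was higher by 0.84 ± 0.09 (adjusted p = 5.28e-05), with 5.08, 5.10 and 5.33 in ES cells. These 4 calls stand against 24.2% of all genes called, and strain, extraction kit and source differ together between the embryo and ES samples, so they cannot be told apart. Without ES day 5 amplified replicate 1 the differences were -2.07 for Fgf5, 0.59 for Fgfr1, 1.0 for Fgfr2 and 0.79 for Fgfr4, and all 4 passed. ENDM1-negative cells had means like those of foregut for Fgf5 (6.12, against 6.16), Fgfr1 (7.78, against 7.88) and Fgfr2 (7.54, against 7.5). The differences of these genes from ES cells were therefore not particular to foregut. Against ES cells at day 5, Fgf4, at 0.20 ± 0.15, Fgfr3, at 0.17 ± 0.10 (adjusted p = 0.25), and Dusp6, at -0.03 ± 0.15, did not pass.

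In the same comparison 13 of 24 co-receptors and heparan sulfate genes were higher in foregut and 2 lower (median 0.33, against 0.08 over all genes). Of all genes, 24.2% were called. Klb was higher by 1.09 ± 0.15 and Gpc4, a heparan sulfate proteoglycan, lower by -2.03 ± 0.33. Of 27 other feedback genes and ERK targets, 9 were higher and 3 lower. Dusp9, an ERK phosphatase, was higher by 1.85 ± 0.12 and Egr1, an immediate early gene, by 1.36 ± 0.14, and Etv1 was lower by -1.54 ± 0.37. All 7 visceral endoderm markers were higher in foregut too. Epiblast markers moved beside Fgf5: 5 of 8 were lower in foregut and 1 higher (median -0.84), with array means of 7.21 to 7.46 in foregut and 7.91 to 7.96 in ES cells at day 5. Of 7 endothelium and blood markers 3 were higher (6.01 to 6.15 in foregut, 4.81 to 4.99 in ES cells). The part of these lists was not tested.

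**Figure D5:**
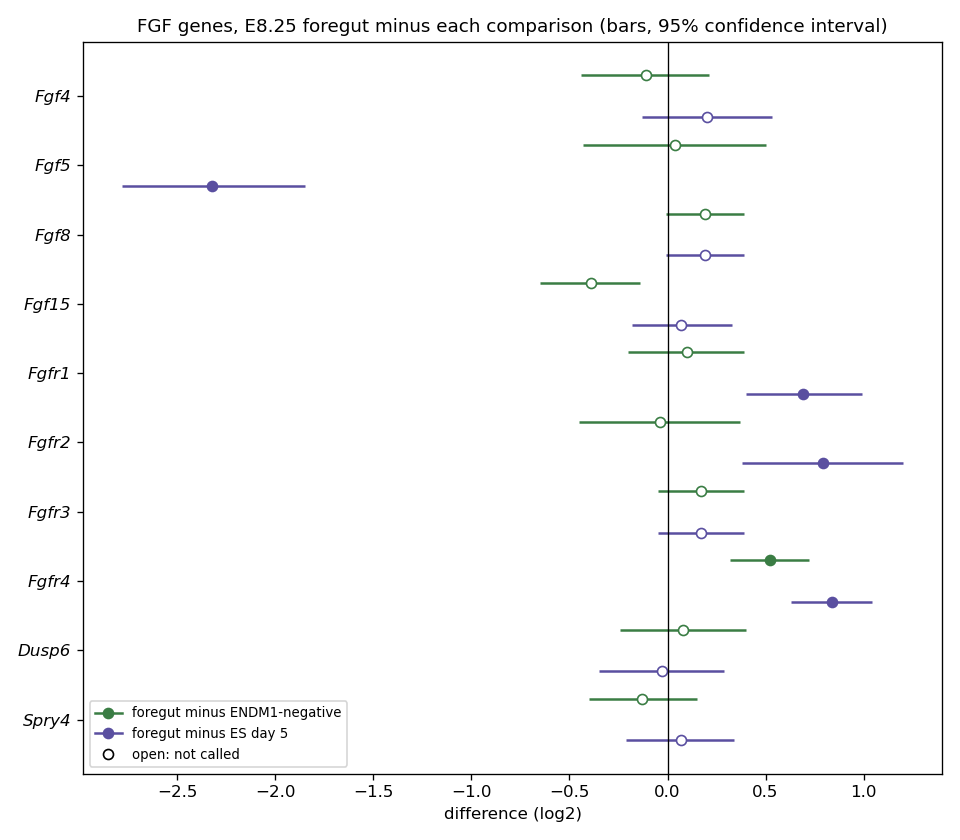
Differences in log2 expression of the 10 FGF genes between E8.25 foregut and ENDM1-negative cells, and between foregut and ES cells at day 5, with 95% confidence intervals and open points where the adjusted p was not under 0.05. Fgfr4 lies above 0 in both comparisons and Fgf5 lies at -2.32 against ES cells at day 5 alone.

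Correlations among the 10 genes were taken across the 18 unamplified arrays, which share groups of 3, so they describe these arrays and carry no p. Fgfr1 and Dusp6 correlated at r = 0.94, Fgf4 and Spry4 at 0.92, and Fgf5 and Fgfr2 at 0.85, while Fgf4 and Fgfr2 stood at -0.95. The highest correlation of Fgf15 was 0.52, with Fgfr1, and its lowest -0.61, with Fgfr2. The genes most like each member were sought among 2925 genes whose group means spanned at least 1 log2 unit, with microRNA and provisional gene symbols left out. Fgf4 was most like Ooep (r = 0.99), Zbtb8a (0.989) and Inpp5d (0.989). Fgf5 was most like Foxa2 (0.972), Cyp26a1 (0.972) and Rcbtb2 (0.961), and Fgf8 like Eomes (0.827), Mycl (0.755) and Aplnr (0.753). Foxa2 and Eomes are transcription factors of endoderm and of the primitive streak. Fgf15 was most like Prph (0.933), Map7d3 (0.927) and Lpl (0.926). Fgfr1 was most like Stxbp6 (0.962), Dnajb13 (0.959) and Lrriq1 (0.949), and Fgfr2 like Papss1 (0.997), Usp3 (0.996) and Tm6sf1 (0.995). Fgfr3 was most like Ldb2 (0.847), Gpm6b (0.843) and Il18 (0.841), and Fgfr4 like Mapk10 (0.779), Vtn (0.776) and Cldn3 (0.737). Dusp6 was most like Tdrkh (0.977), Stk39 (0.962) and Spock2 (0.961), and Spry4 like Mindy1 (0.978), Mettl1 (0.967) and Itpk1 (0.967).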

How the data were processed

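The series holds 30 Affymetrix Mouse Gene 1.0 ST arrays. Per the submitters' processing notes, the authors deposited log2 values made with RMA, 1 per probe set. Its version, and whether both labellings were processed together, are not given in the sources used here. Of 35556 probe sets, 21789 named a single gene, and each of 19938 genes was read from its probe set of highest mean level. A mean per group was fitted with limma 3.58.1 (R 4.3.3, with data.table at version 1.17.8) to the 18 unamplified arrays and, apart from them, to the 12 amplified arrays. Tests are two-sided and moderated, and p-values were adjusted over all genes by Benjamini-Hochberg, with calls at under 0.05. They measure the spread between replicates. The script was tested on simulated data. All 10 members are named, with up to 2 called rises and 2 called falls of each other list per contrast, the 3 genes most like each member, and markers. Etv4, Etv5, Spry2 and Klb were also named, picked after their values were seen. Members and lists were chosen with earlier results of these data known. The alternatives were other fits, scalings, filters, probe sets and spread models, a replicate block, a least difference, and arrays left out. No column was left out.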

Additional observations from a re-analysis of the deposited data

Results flagged for a closer look

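The response of Fgf8 differed between ST5 and ES cells by a test of the difference itself: day 5 minus day 0 in ST5 less the same in ES cells was -1.04 ± 0.20 (limma, adjusted p = 0.0101). The Fgf8 difference was -0.19 ± 0.14 in ST5 and 0.85 ± 0.14 in ES cells. Its day 0 means were 7.67 ± 0.33 in ST5 and 7.0 ± 0.32 in ES cells (SD, n = 3). The call of that day 0 difference was lost with some single arrays left out, as given above. On amplified arrays, Fgf8 of ES cells differed by only 0.05 ± 0.09 between the days (limma, adjusted p = 0.748).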

How the results depend on the processing

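No call changed direction under any alternative. Where a log2 difference of at least 1 was also required, the FGF genes called were 3 in ST5, 2 in ST8 and 3 in ES cells for day 5 against day 0, 0 for either clone against ES cells at day 0, 0 for ST5 against ES cells at day 5, 0 for foregut against ENDM1-negative cells and 1 for foregut against ES cells. For ST8 against ES cells at day 0 the count was 0 with all 30 arrays in a fit, 2 with only the groups compared and 2 without genes under the median level. For the response of ST5 less that of ES cells it was 2 with only the groups compared. Leaving out arrays gave 5 to 6 calls in ST5, 6 to 9 in ST8 and 6 to 9 in ES cells for day 5 against day 0. At day 0 it gave 0 to 3 for ST5 and 0 to 2 for ST8 against ES cells, and at day 5 it gave 1 to 5 and 0 to 1. Responses gave 1 to 5 for ST5 and 0 to 1 for ST8 less ES cells. On amplified arrays it gave 3 to 4 for ES cells, 1 to 2 for foregut against ENDM1-negative cells and 4 to 4 for foregut against ES cells. In the report, calls that changed are given with the arrays concerned. Apart from fewer samples or genes, the cause was not tested. Same-numbered arrays did not deviate together throughout: their deviations correlated at -0.648 to 0.505 on unamplified arrays, with 9 of 45 pairs over 0.1, and at -0.069 to 0.087 on amplified arrays, with 0 of 18. With 3 arrays a group, 1 that stands apart can set these values, so they cannot decide whether replicate numbers pair the samples. With the replicate number as a block, counts for day 5 against day 0 were 6 in ST5, 7 in ST8 and 7 in ES cells. For ST5 against ES cells at day 5 the count was 3, and the other counts were the same numbers as without the block. The block moved 3 of 120 member tests across the threshold: Fgfr4 in ST5 over the 5 days (adjusted p = 0.0444), Fgfr1 in ST8 over the 5 days (0.0505) and Fgfr1 in ST5 against ES cells at day 5 (0.0554). Low levels, near the median of all genes for Fgfr3 and Fgfr4, limit how far a fall could show.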

Other observations

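At day 5, replicate 1 of the ES samples deviated alike in the 2 labellings. Taken over 19938 genes, themselves no independent replicates, the deviations from the group mean of amplified replicates 1, 2 and 3 correlated with those of the same-numbered unamplified replicates at r = 0.65, 0.45 and 0.29. Different numbers gave -0.58 to 0.34. Amplified replicate 3 went with unamplified replicate 2 (0.34) more than with unamplified replicate 3, so replicates 2 and 3 were not told apart. With 3 arrays a group, 1 that stands apart makes the deviations of the other 2 go together. At day 0 the same-numbered values were 0.12, 0.08 and -0.04. FGF genes showed it too: amplified ES day 5 replicate 1 had the highest Fgfr2 (7.13, against 6.35 and 6.65 in replicates 2 and 3) and the lowest Dusp6 (7.27, against 7.68 and 7.64) of its group, and so had unamplified ES day 5 replicate 1, with Fgfr2 at 8.18 and Dusp6 at 9.17. Nanog stood at 7.80, 9.32 and 9.29 on the amplified ES day 5 arrays.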
